A study of Mus musculus with 6 samples.

Results

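A set of 9 genes of retinol and retinaldehyde metabolism was followed in OP9 cells, a mouse stromal line used to support lymphoid progenitors in culture. They were Aldh1a1, Aldh1a7, Adh1, Dhrs3, Rdh10, Rdh11, Aldh1a2, Aldh1a3 and Stra6. Every probe set with 1 of these current symbols as its only gene in the platform annotation was taken, which gave 169 probe sets of the 318760 with 1 symbol, and all 9 genes were among the 16923 for which a gene value could be made. Aldh1a1 and Aldh1a7 were singled out because an earlier look at the same arrays had placed them among the largest decreases, and the other 7 were added as genes of the same pathway with that result known. The values of these 9 genes in the comparison below are therefore descriptions, and no p-value is given for them.

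One group was a stable OP9 line transduced with pLKO.1-Puro lentivirus carrying a hairpin against Smoothened (Smo shRNA), the membrane protein through which Hedgehog signals reach the cell. The other group was a stable OP9 line with the same vector and a scrambled hairpin (control shRNA). OP9 cells come from op/op mice, which make no functional macrophage colony-stimulating factor, and both lines share this background. Both were kept below confluence and sampled 3 times each for Affymetrix Mouse Exon 1.0 ST arrays. The labels do not tell whether each triplicate had its own transduction, so any other difference between the lines cannot be told apart from an effect of the hairpin, and the spread between arrays may be technical.

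Retinoic acid is made from retinol (vitamin A) in a pair of oxidation steps. Retinol enters some cells through the receptor Stra6, which takes it over from its plasma carrier. Alcohol dehydrogenases such as Adh1 and membrane-bound retinol dehydrogenases, above all Rdh10, oxidise it to retinaldehyde, and reductases such as Dhrs3 and Rdh11 turn retinaldehyde back into retinol. The aldehyde dehydrogenases Aldh1a1, Aldh1a2 and Aldh1a3 oxidise retinaldehyde irreversibly to retinoic acid. Aldh1a7 is in the set as a close relative of Aldh1a1, and whether its enzyme acts on retinaldehyde was not examined here. In fat tissue and its precursors Aldh1a1 is known as a main retinaldehyde dehydrogenase.

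Values are log2 signals. Each probe set reads a short stretch of a transcript, usually an exon or part of one, and a gene value joins, array by array, the probe sets of a gene that averaged 6.56 or more over the 6 arrays, which is the overall median. Differences are Smo shRNA minus control shRNA, and SE is limma's moderated standard error. A call is an adjusted p under 0.05 in limma's fit over all genes, with Benjamini-Hochberg adjustment. Smo, the target of the hairpin, had gene values of 11.32, 11.36 and 11.44 on the Smo shRNA arrays and 12.29, 12.22 and 12.24 on the control arrays, a difference of -0.88 (SE 0.04, limma adjusted p = 1.22e-09). Over all genes, arrays of the same line correlated at 0.996 to 0.998 and arrays of different lines at 0.979 to 0.981, and 38.6% of genes were called.

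Of the 9 genes, 4 lay past the call threshold on the lower side (Aldh1a1, Aldh1a7, Adh1 and Dhrs3), 3 on the higher side (Rdh11, Rdh10 and Aldh1a3) and 2 did not pass (Aldh1a2 and Stra6). Over all genes 17.4% were called lower and 21.2% higher. All 4 lower genes and Rdh11 differed by 2-fold or more, as did 1.18% of all genes on the lower and 0.402% on the higher side. These shares are given as background only, because the genes were chosen with this comparison known. Their median size of difference was 1.08, and that of all genes was 0.11. The signed medians were -0.06 and 0.01.

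**Figure D1:**
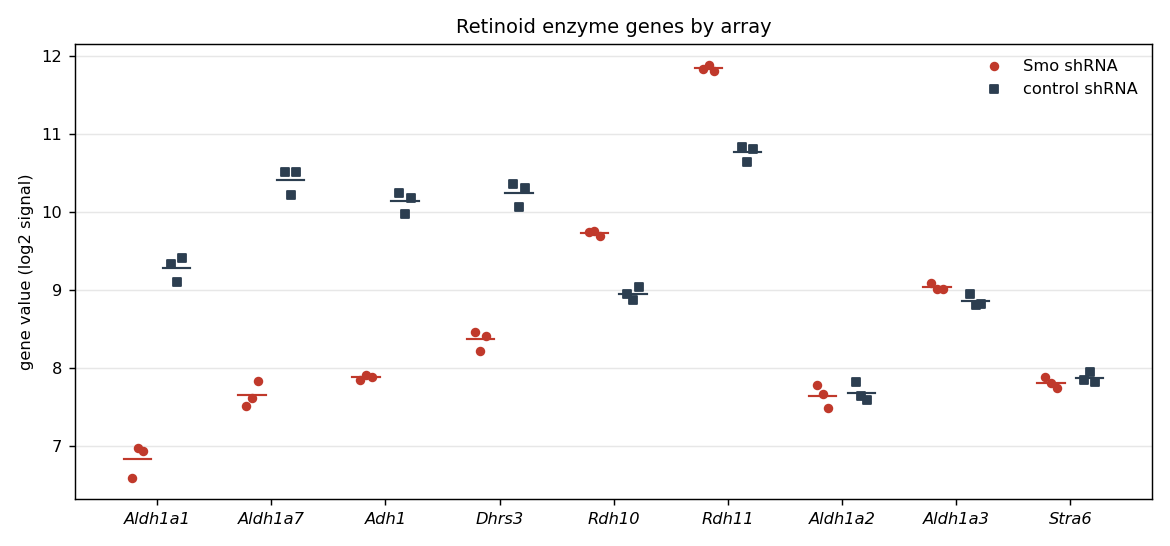
Gene values (log2 signal, vertical axis) of the 9 retinoid genes on the 3 Smo shRNA arrays (circles) and the 3 control shRNA arrays (squares), with the mean of each group as a line. The groups do not overlap for 7 genes, 4 lower and 3 higher (over all genes 21.4% lower and 26.4% higher), and overlap for Aldh1a2 and Stra6, and levels of different genes are not comparable because each has its own probes.

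Aldh1a1, which encodes retinaldehyde dehydrogenase 1, was 5.46-fold lower in the Smo shRNA line. It had gene values of 6.59, 6.98 and 6.94 on the Smo shRNA arrays and 9.33, 9.11 and 9.42 on the control arrays, a difference of -2.45 (SE 0.11). The groups were far apart, and control replicate 2 was the lowest of the control arrays. With no detection calls, it was not decided whether the Smo shRNA values lay above background, so the fold describes the signals on the arrays. The same limit holds for the folds of Aldh1a7, Adh1 and Dhrs3 given below. Aldh1a7, a rodent gene closely related to Aldh1a1, was 6.74-fold lower, with 7.52, 7.62 and 7.84 on the Smo shRNA arrays and 10.51, 10.21 and 10.51 on the control arrays (difference -2.75, SE 0.09). In order from the largest decrease, Aldh1a7 ranked 6 and Aldh1a1 ranked 10 of 16923 genes.

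The probe sets of each gene differed widely among themselves. All 15 Aldh1a7 probe sets were lower and called, with differences between -5.30 and -1.58. Of the 15 Aldh1a1 probe sets, 14 were called lower, with differences between -5.63 and -0.99. Over all probe sets with 1 symbol, 9.3% were called lower. The steepest Aldh1a1 probe set, 5500740, read 4.14, 4.47 and 4.51 in Smo shRNA cells and 10.27, 9.77 and 9.98 in control cells. At the other end, probe set 5525963 read 8.93, 8.88 and 8.83 in Smo shRNA cells and 9.03, 9.09 and 8.85 in control cells, and its groups overlapped. The SD of the differences was 1.40 over the Aldh1a1 probe sets and 1.04 over those of Aldh1a7.

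The size of the Aldh1a1 decrease depended on which probe sets were used. In Smo shRNA cells 9 of its 15 probe sets had a mean below the median of all probe sets, against 0 of 15 in control cells, and for Aldh1a7 it was 5 of 15 in Smo shRNA cells and 1 of 15 in control cells. A filter at the 75th percentile of all probe sets left 3 Aldh1a1 probe sets, the flat one among them, and gave a difference of -1.38 in place of -2.45. For Aldh1a7 the same filter left 7 probe sets and gave -3.01.

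Aldh1a1 and Aldh1a7 are neighbours on chromosome 19 in the RefSeq annotation of GRCm38.p6, on opposite strands, and one of the 2 RefSeq promoter windows of Aldh1a1 closely resembles that of Aldh1a7. They are shown because these genes were the most decreased of the 9. Most of each window lies before the annotated start, so their likeness does not show whether probes share signal. Each window runs from 250 bases before to 50 bases after an annotated start, 5′ to 3′ on the strand of the gene, and capitals mark runs of 12 or more bases identical in a global alignment of the windows.
Aldh1a1 promoter, chr19:20601718-20602017, plus strand: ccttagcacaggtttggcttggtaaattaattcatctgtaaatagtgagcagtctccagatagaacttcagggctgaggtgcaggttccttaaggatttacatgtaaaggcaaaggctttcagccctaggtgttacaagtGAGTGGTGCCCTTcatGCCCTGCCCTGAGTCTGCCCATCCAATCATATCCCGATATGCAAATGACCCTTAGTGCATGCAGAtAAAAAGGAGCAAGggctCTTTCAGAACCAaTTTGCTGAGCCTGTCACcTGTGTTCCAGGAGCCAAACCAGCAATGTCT
Aldh1a7 promoter, chr19:20727507-20727806, minus strand: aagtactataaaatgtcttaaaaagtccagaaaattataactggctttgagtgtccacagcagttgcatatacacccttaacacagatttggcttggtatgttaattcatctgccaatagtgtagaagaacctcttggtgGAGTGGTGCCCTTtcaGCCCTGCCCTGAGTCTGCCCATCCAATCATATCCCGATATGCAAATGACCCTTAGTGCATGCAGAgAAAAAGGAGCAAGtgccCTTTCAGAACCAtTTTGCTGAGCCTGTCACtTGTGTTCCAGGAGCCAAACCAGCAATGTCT
Of 286 aligned pairs of bases, 221 (77.3%) were identical, and the longest shared run was 65 bases. Among all other pairs of windows from different genes of the 9, the longest shared run was 11 bases. The 65-base run holds a CCAAT motif and an ATGCAAAT motif (octamer), which occur on either strand in 37.4% and 1.74% of the 32851 RefSeq windows. The Aldh1a2 window also holds ATGCAAAT and CCAAT.

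Windows were found for 7 of the 9 genes, 14 in all, and Aldh1a3 and Rdh10 had no entry. The Gli-type motif TGGGTGGTC, present in 0.253% of windows, was in none of the 14, and neither was a direct repeat of retinoic acid receptor half-sites with a 5-base spacer (DR5), present in 0.0974%. The half-site AGGTCA was in 1 Rdh11 window and in 16.3% of all windows. A missing motif says only that these letters are not in these windows.

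Whether signal was shared between paralogs could be examined only through the annotation and the values, since probe and transcript sequences were not used here. None of the 6684 probe sets that the annotation gives to several genes carried the symbol of any of the 9 genes. Whether probes of Aldh1a1 and Aldh1a7 bind RNA of the other gene was not tested. The transcript annotated between Aldh1a1 and Aldh1a7, E030003E18Rik, was also lower. It had gene values of 7.55, 7.36 and 7.84 in Smo shRNA cells and 9.01, 8.97 and 8.86 in control cells, from 3 probe sets (difference -1.36, SE 0.10, limma adjusted p = 1.82e-07). Outside this stretch the fall was not shared by every neighbour. Anxa1, the tested gene on the far side of Aldh1a1 (annexin A1), did not pass (difference 0.00, SE 0.02, limma adjusted p = 0.981), and Rorb beyond it was lower (-0.25, SE 0.09, limma adjusted p = 0.0355). Tmc1, on the far side of Aldh1a7, did not pass either (-0.02, SE 0.09, limma adjusted p = 0.924), and Zfand5 beyond it was 0.36 lower (SE 0.05, limma adjusted p = 4.01e-05).

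By Euclidean distance between profiles over the 6 arrays, each centred on its own mean, the genes most like Aldh1a1 were Limch1 (distance 0.30), Trim30d (0.35) and Ppargc1a (0.35), with Aldh1a7 at rank 9 (0.44). Those most like Aldh1a7 were C3 (0.35), Postn (0.38) and Trim30d (0.42), with Aldh1a1 at rank 5. With replicates close together, such distances mostly reflect the size of the difference between the lines, by which Aldh1a1 and Aldh1a7 were chosen. That difference was -2.31, -2.44 and -2.44 for the genes named for Aldh1a1, and -2.88, -2.97 and -2.44 for those named for Aldh1a7. Shared regulation was not tested.

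**Figure D2:**
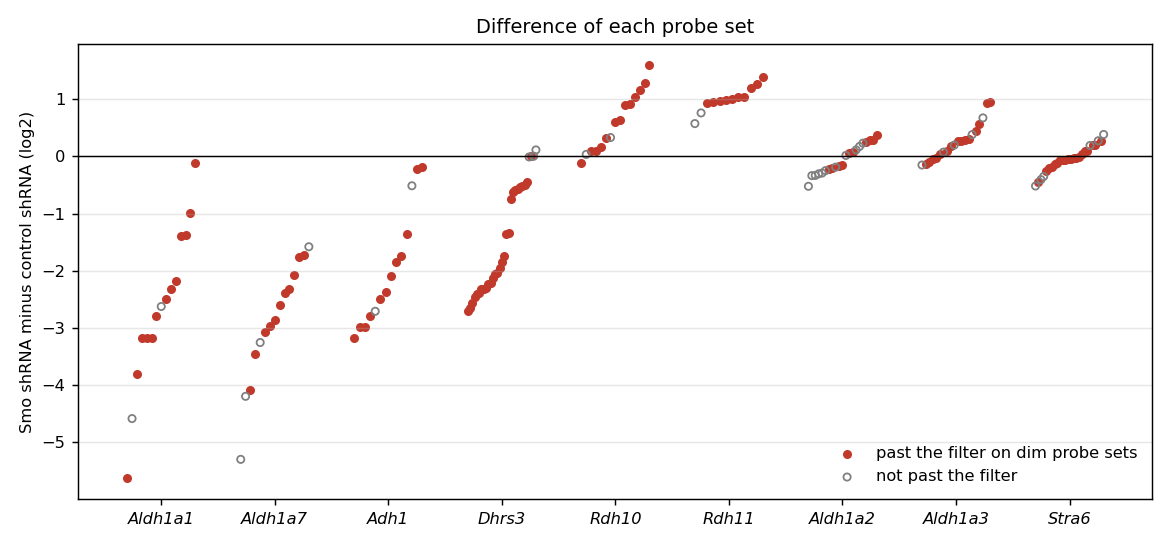
Difference between Smo shRNA and control shRNA (log2, vertical axis) of each of the 169 probe sets, ordered within each gene. Filled points passed the filter on dim probe sets (132) and open points did not. Aldh1a1, Aldh1a7 and Adh1 lie wholly below 0 and Rdh11 wholly above it, and Aldh1a1 runs from -5.63 to -0.11.

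Adh1, the alcohol dehydrogenase of class I that also accepts retinol, was 4.75-fold lower in the Smo shRNA line. It had gene values of 7.85, 7.92 and 7.89 on the Smo shRNA arrays and 10.25, 9.97 and 10.18 on the control arrays (difference -2.25, SE 0.07), and it ranked 17 from the largest decrease. All 14 Adh1 probe sets were lower, and 11 were called, against 9.3% called lower among all probe sets with 1 symbol. The called ones had differences between -3.18 and -1.36. The 3 that were not called had control means between 6.01 and 7.52 and differences between -0.51 and -0.18. Probe set 4537380, with the largest difference, read 7.65, 7.61 and 7.46 in Smo shRNA cells and 11.003, 10.40 and 10.88 in control cells.

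None of the tested relatives of Adh1 was called lower. Adh7, the class IV enzyme with high activity towards retinol, lies next to Adh1 among the tested genes and was higher, at 10.49, 10.42 and 10.42 in Smo shRNA cells and 10.05, 9.81 and 10.02 in control cells (difference 0.48, SE 0.06, limma adjusted p = 3.27e-05). Adh5, the class III enzyme, which acts mainly on a formaldehyde adduct of glutathione, was 0.37 higher (SE 0.05, limma adjusted p = 7.89e-05). Adh4 did not pass (-0.15, SE 0.12, limma adjusted p = 0.382), and Adh6a and Adh6b had too few probe sets past the filter to be tested.

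Dhrs3, a short-chain reductase that returns retinaldehyde to retinol, was 3.65-fold lower. Its gene values were 8.47, 8.22 and 8.42 on the Smo shRNA arrays and 10.36, 10.06 and 10.30 on the control arrays (difference -1.87, SE 0.09), at rank 40 from the largest decrease. Of its 31 probe sets, 27 were called lower, against 9.3% of all probe sets with 1 symbol, and 4 were not called. The called ones fell into separate ranges, with 19 between -2.71 and -1.34 and 8 between -0.75 and -0.44. The 8 with the small difference were not dim, with means of 8.51 to 9.90 in Smo shRNA cells and 9.02 to 10.52 in control cells. For the 19 the means were 5.99 to 9.72 in Smo shRNA cells and 8.42 to 11.34 in control cells. The 4 that were not called had means of 6.07 to 6.75 in Smo shRNA cells and 6.08 to 6.75 in control cells. As an example of the small difference, probe set 4495155 read 9.85, 9.70 and 9.47 in Smo shRNA cells and 10.30, 10.17 and 10.04 in control cells. Where these probe sets lie along Dhrs3 was not analysed here.

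**Figure D3:**
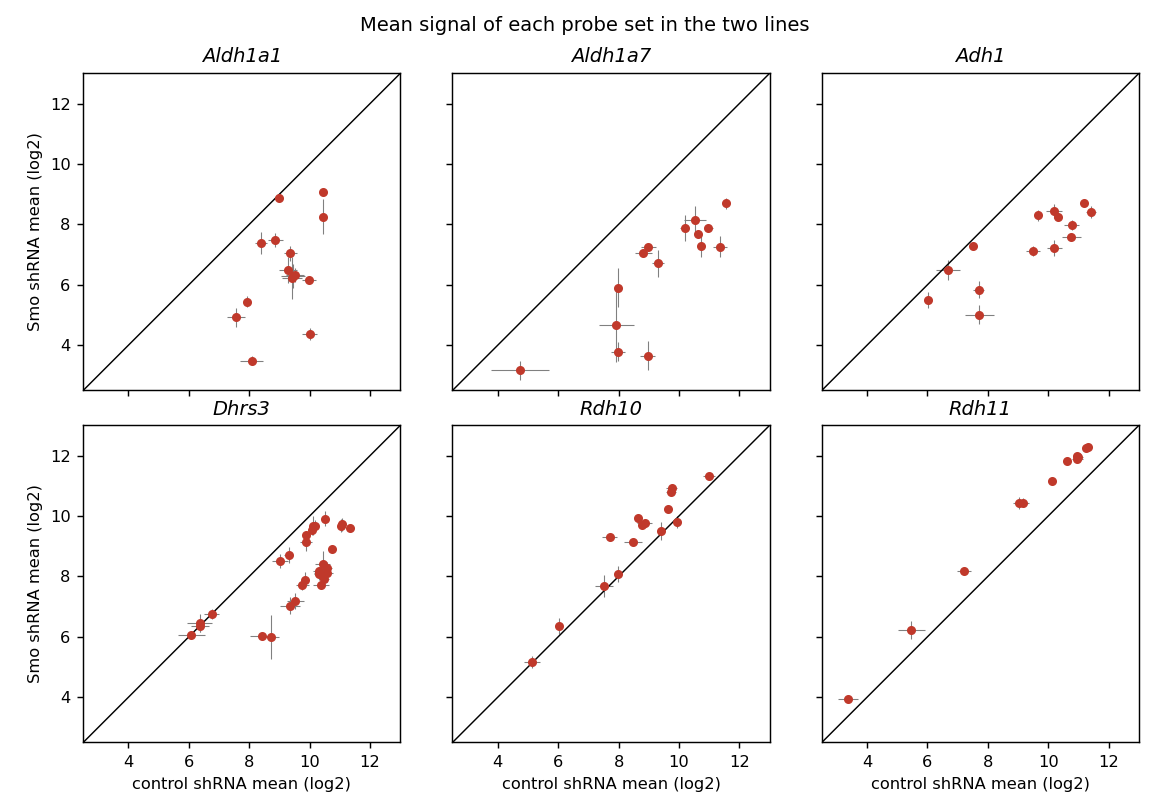
Mean signal of each probe set in Smo shRNA cells (log2, vertical axis) and in control shRNA cells (log2, horizontal axis) for the 6 genes with the largest differences. Bars are SD over 3 arrays and the diagonal marks equal signal. Dhrs3 shows 8 bright probe sets with differences of -0.75 to -0.44 apart from the other 19 that were called, and all Rdh11 probe sets lie above it.

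The enzymes Rdh10 and Rdh11 were higher in Smo shRNA cells. Rdh10, the main retinol dehydrogenase of the mouse embryo and a binding partner of Dhrs3, had gene values of 9.74, 9.76 and 9.70 on the Smo shRNA arrays and 8.94, 8.87 and 9.04 on the control arrays, a 1.72-fold difference (0.78, SE 0.06). Of its 15 probe sets, 9 were called higher and 6 were not called. Over all probe sets with 1 symbol, 12.9% were called higher. Probe set 4735628 had the largest difference, with 9.42, 9.23 and 9.28 in Smo shRNA cells and 7.48, 7.66 and 7.97 in control cells. Probe set 4488445 read 9.99, 9.81 and 9.61 in Smo shRNA cells and 9.94, 9.91 and 9.90 in control cells, where the groups overlapped. The 6 probe sets that were not called had differences between -0.11 and 0.33.

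Rdh11, a retinaldehyde reductase of the endoplasmic reticulum, was 2.11-fold higher, with 11.83, 11.88 and 11.81 on the Smo shRNA arrays and 10.83, 10.65 and 10.81 on the control arrays (difference 1.08, SE 0.05). It ranked 49 from the largest increase, and Rdh10 ranked 180. All 12 Rdh11 probe sets were higher with no overlap between the groups, as were 19.6% of the probe sets with 1 symbol. Of the 12, 10 were called higher, against 12.9% of all probe sets with 1 symbol. The differences of all 12 lay between 0.57 and 1.40, and their SD was 0.22. Rdh12, a close relative next to Rdh11 on chromosome 12, did not pass (difference 0.08, SE 0.08, limma adjusted p = 0.516), while Vti1b on the other side was 0.34 higher (SE 0.09, limma adjusted p = 0.0104) and Zfyve26, beyond Rdh12, 0.48 higher (SE 0.06, limma adjusted p = 1.26e-05).

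The other retinaldehyde dehydrogenases and the retinol receptor differed little. Aldh1a3, or retinaldehyde dehydrogenase 3, had gene values of 9.09, 9.01 and 9.02 on the Smo shRNA arrays and 8.95, 8.81 and 8.83 on the control arrays (difference 0.18, SE 0.06). The groups did not overlap, but the call was made in only 7 of 14 alternative settings, with differences of 0.06 to 0.27. It was lost when any 1 of the 3 Smo shRNA arrays was left out (0.06, 0.09 and 0.09). It was also lost without control replicate 2 (0.12) or control replicate 3 (0.17), when dim probe sets were kept (0.19) and under the stricter filter (0.13). When an array was left out, the gene values were made again from the remaining arrays. These differences therefore do not show the part of the missing array alone. Only 3 of 20 Aldh1a3 probe sets were called higher, beside 12.9% of all probe sets with 1 symbol. One of the 3, probe set 4843776, read 7.91, 8.21 and 8.03 in Smo shRNA cells and 7.06, 7.14 and 7.10 in control cells.

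Aldh1a2, or retinaldehyde dehydrogenase 2, had gene values of 7.79, 7.67 and 7.49 on the Smo shRNA arrays and 7.83, 7.64 and 7.60 on the control arrays (difference -0.04, SE 0.09). Stra6 had 7.89, 7.81 and 7.75 in Smo shRNA cells and 7.86, 7.96 and 7.82 in control cells (difference -0.06, SE 0.07). The groups overlapped for both genes, and none of their 21 and 26 probe sets was called in either direction. The filter on dim probe sets kept 10 of 21 for Aldh1a2 and 20 of 26 for Stra6. With no detection call in the deposited values, it was not decided whether either gene was expressed, and a p that misses the threshold does not show equal levels. The brightest Aldh1a2 probe set had means of 12.2 in Smo shRNA cells and 12.4 in control cells. For Stra6 these were 12.88 and 12.94. The 17 tested markers of hepatocytes, endothelium and epithelium, none of them called, had gene means between 7.12 and 8.68 in Smo shRNA cells. In control cells they lay between 7.06 and 8.68. Levels of different genes are not comparable, so this range does not decide expression of Aldh1a2 or Stra6. The Smo shRNA means of Aldh1a7 (7.66), Adh1 (7.89) and Dhrs3 (8.37) also lay within it.

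**Figure D4:**
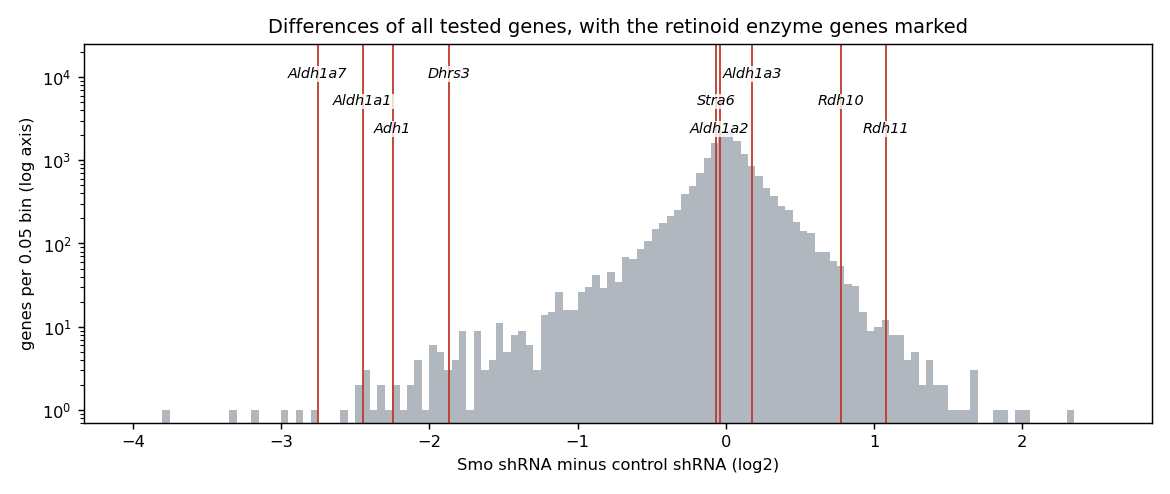
Number of genes (vertical axis, log scale) by difference between Smo shRNA and control shRNA (log2, horizontal axis) over 16923 tested genes, with the 9 retinoid genes as vertical lines. Aldh1a7, Aldh1a1, Adh1 and Dhrs3 lie between -2.75 and -1.87, in the sparse lower tail, and Rdh10 and Rdh11 at 0.78 and 1.08.

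Control replicate 2 gave the lowest reading of the 3 control arrays in 103 of the 169 probe sets. This array was also the lowest in 47.3% of all probe sets past the filter, against 24.9% and 27.8% for control replicates 1 and 3. Of the 169, only 132 passed the filter, so the shares cover unlike sets. By gene the count for control replicate 2 was 14 of 15 for Aldh1a1, 15 of 15 for Aldh1a7 and 11 of 12 for Rdh11. It was 23 of 31 for Dhrs3, 10 of 14 for Adh1, 11 of 21 for Aldh1a2 and 8 of 20 for Aldh1a3. Rdh10 had 4 of 15 and Stra6 had 7 of 26. Without this array the differences were -2.57 for Aldh1a1, -2.55 for Aldh1a7, -2.27 for Adh1, -1.96 for Dhrs3, 0.72 for Rdh10 and 1.02 for Rdh11, and all 6 stayed past the threshold. The gene values were made again from the remaining arrays, so these figures do not show the part of control replicate 2 alone. For Aldh1a7 the decrease was smaller without control replicate 1, 2 or 3 (-2.44, -2.55 and -2.45) than with all arrays (-2.75).

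Other genes of retinoid handling and the other alcohol and aldehyde dehydrogenases, not all of which act on retinoids, were examined in lists. These lists did not include the 9 genes, except that Dhrs3 and Stra6 also stand in the list of retinoic acid responsive genes. The background for counts in these lists is 17.4% of all genes called lower and 21.2% called higher. Of 16 other aldehyde dehydrogenases, 7 fell, 3 rose and 6 did not pass, with a median difference of -0.09, against 0.01 over all genes. The largest change was in Aldh1l1, a folate enzyme, which was 2.17-fold lower at 10.44, 10.55 and 10.38 in Smo shRNA cells and 11.62, 11.46 and 11.64 in control cells (difference -1.12, SE 0.06, limma adjusted p = 5.1e-09). The differences were -0.64 for Aldh3b1, -0.49 for Aldh6a1, -0.33 for Aldh4a1, -0.30 for Aldh1b1, -0.24 for Aldh2, the mitochondrial enzyme that clears acetaldehyde, and -0.11 for Aldh7a1. Aldh5a1, Aldh18a1 and Aldh3a2 rose by 0.35, 0.27 and 0.15. The calls of Aldh7a1 and Aldh3a2 were lost in 4 and 2 of 14 alternatives.

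Of 12 tested retinol dehydrogenases and reductases besides Rdh10, Rdh11 and Dhrs3, 2 fell, 2 rose and 8 did not pass. Among all genes, 17.4% were called lower and 21.2% higher. Dhrs9, a retinol dehydrogenase, fell by 0.48 (SE 0.05, limma adjusted p = 1.55e-06) and Dhrs4, a reductase of retinaldehyde and other carbonyls, by 0.32 (SE 0.03, limma adjusted p = 3.97e-06). Dhrs7 rose by 0.44 and Rdh14 by 0.30, the call of Rdh14 being kept in 6 of the 12 alternatives in which it was tested. Of the 3 tested alcohol dehydrogenases besides Adh1, 2 rose as given above.

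Among 14 tested genes of retinol and carotenoid uptake, binding and storage, 4 fell, 2 rose and 8 did not pass. The shares of all genes called were 17.4% lower and 21.2% higher. Lpl, lipoprotein lipase, which frees retinyl esters from chylomicrons, was 2.52-fold lower, with 10.65, 10.80 and 10.80 in Smo shRNA cells and 12.02, 12.11 and 12.13 in control cells (difference -1.33, SE 0.05, limma adjusted p = 2.15e-10). Rbp4, the plasma carrier of retinol, had 12.20, 12.23 and 12.14 in Smo shRNA cells and 12.67, 12.59 and 12.67 in control cells (difference -0.45, SE 0.03, limma adjusted p = 1.48e-07). Dgat1 and Lipe, which esterify and release lipids and retinol, had differences of -0.24 and -0.23. Scarb1, a carotenoid and lipoprotein receptor, rose by 0.36 and Lrp1, a receptor for lipoprotein remnants, by 0.21. Lrat, which makes retinyl esters, did not pass (-0.16, SE 0.12, limma adjusted p = 0.349).

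Genes that bind, break down or respond to retinoic acid were counted in the same way. The same background applies (17.4% of all genes called lower and 21.2% higher). Of 7 binding and breakdown genes, 1 fell and 6 did not pass. The one that fell was Fabp5, a fatty acid and retinoic acid carrier (-0.22, SE 0.05, limma adjusted p = 0.00263), a call lost in 1 of 14 alternatives. Cyp26a1 and Cyp26b1, which degrade retinoic acid, had differences of 0.13 (SE 0.08, limma adjusted p = 0.256) and 0.00 (SE 0.06, limma adjusted p = 0.976). Of 6 receptors, Rxra fell by 0.30, Rarg rose by 0.23 and 4 did not pass, among them Rarb, a receptor gene that retinoic acid induces (0.06, SE 0.09, limma adjusted p = 0.652). Of 13 tested genes with a well known response to retinoic acid, 2 fell (Dhrs3, -1.87, and Rarres2, -0.49), 1 rose (Tgm2, 0.17) and 10 did not pass. The Tgm2 call was lost in 5 of 14 alternatives, and with Dhrs3 in the list its count is not independent of the choice of genes.

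**Figure D5:**
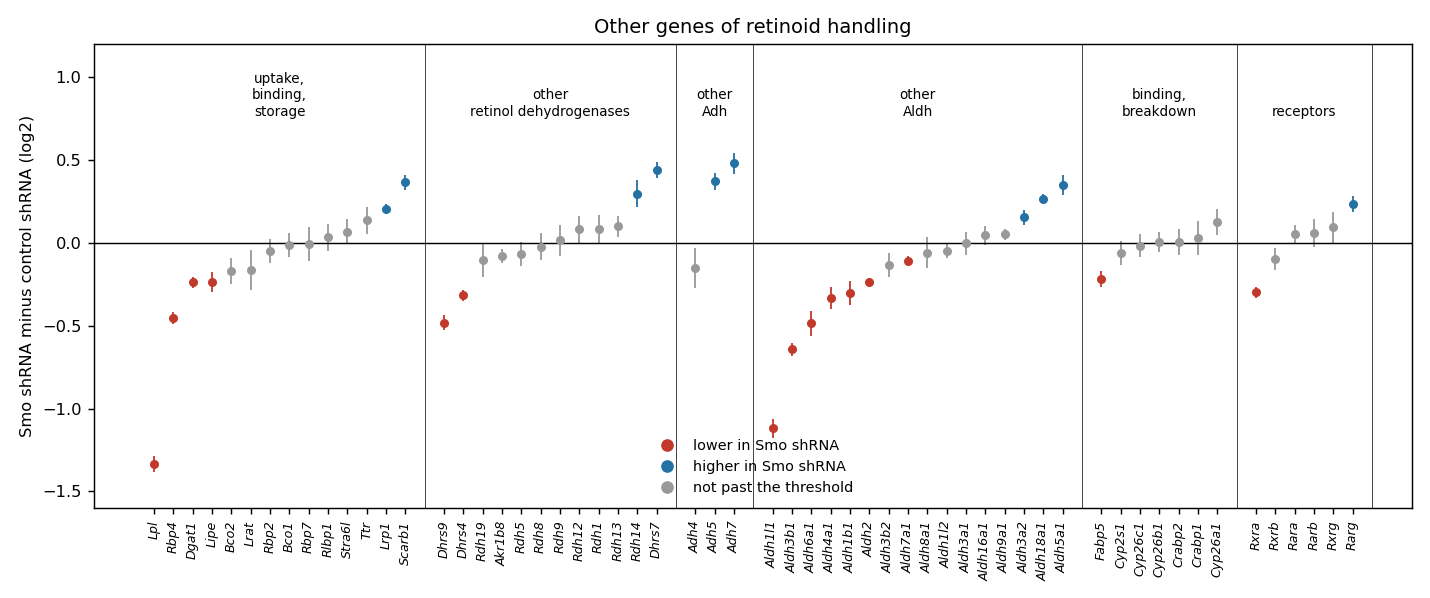
Difference between Smo shRNA and control shRNA (log2, vertical axis, bars are SE) of other genes of retinoid handling, grouped by role. The other alcohol and aldehyde dehydrogenases are drawn too, and not all of them act on retinoids. Red points were called lower, blue points higher and grey points not called. Lpl (-1.33) and Aldh1l1 (-1.12) are the only points beyond 1 in size among those drawn, which leave out the list of retinoic acid responsive genes.

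Markers of other cell types were set beside these results. As background for their counts, 17.4% of all genes were called lower and 21.2% higher. Of 12 stromal markers, 6 were called lower and 0 higher, with Cxcl12 changing most (-0.72). Whether each of them was expressed was not decided, for want of detection calls. Of 7 tested adipocyte markers 4 fell and 1 rose. The mean signal of that list, dim probe sets included, was 9.01 to 9.08 in Smo shRNA cells and 9.63 to 9.75 in control cells. Adipoq, the defining adipokine, was 3.99-fold lower, with 7.68, 7.72 and 7.84 in Smo shRNA cells and 9.98, 9.43 and 9.81 in control cells. Cd36, a fatty acid transporter, had a difference of -1.53, Fabp4 of -0.47 and Plin1 of -0.36, while Pparg, the main regulator of fat cell formation, was 0.12 higher (limma adjusted p = 0.00621). Cidec (-0.04) and Retn (0.10) did not pass. The part of these adipocyte markers in the decreases of Aldh1a1, Aldh1a7 and Adh1 was not tested, and fewer cells of a type and less RNA per cell cannot be told apart. Leukocyte markers had a mean signal, dim probe sets included, of 6.46 to 6.51 in Smo shRNA cells and 6.49 to 6.57 in control cells. Of the 8 tested by gene value, Lyz2 was called lower (-2.49) and Cd68 higher (0.47). The other 6 (Ptprc, Adgre1, Csf1r, Itgam, Spi1 and Laptm5) were not called, with differences between -0.09 and 0.06. None of the 5 hepatocyte, 6 endothelial or 6 epithelial markers tested was called. Of 6 stellate cell markers, Hhip (Hedgehog-interacting protein, 1.05) and Des (0.43) were called higher. The other 4 (Lrat, Gfap, Reln and Hgf) were not called. What the calls of Hhip and Des mean for cell type was not tested.

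Among the 33 tested genes that lie within 2 places of any of the 9 in RefSeq order, 7 were called lower and 5 higher, beside 17.4% and 21.2% of all genes. Only E030003E18Rik and Islr, which lies next to Stra6, differed by 2-fold or more. Islr had 12.04, 12.05 and 12.02 in Smo shRNA cells and 13.32, 13.27 and 13.26 in control cells (difference -1.25, SE 0.03, limma adjusted p = 2.32e-12). These neighbours were chosen by position, after the values of the 9 genes were known.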

How the data were processed

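RNA of 3 Smo shRNA and 3 control shRNA samples was hybridised to Affymetrix Mouse Exon 1.0 ST arrays, per the labels. The table deposited by the authors holds log2 values of 1256831 probe sets, a scale read from the values (0 to 15.14). Array medians were 6.56 to 6.59. How the authors normalized these values was not given in sources used here. On every array 20744 probe sets read 0.

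Of 22296 single symbols in the platform annotation, 18006 were current in RefSeq (GRCm38.p6), 3993 were updated through a synonym of 1 gene without joining genes, and 297 were kept as older names. RefSeq also lists some of the Aldh1a symbols as synonyms of each other, so current symbols took precedence. Probe sets with a mean at or above 6.56 were kept (245574), and genes with 3 or more were joined by Tukey median polish. The comparison used limma 3.58.1 under R 4.3.3 (lmFit, eBayes with a variance trend, no replicate block, two-sided), with Benjamini-Hochberg adjustment over all 16923 genes or, without the filter, over all 318760 probe sets with 1 symbol. The number of arrays limits the precision. The calculation was tested on simulated data. Promoter windows from RefSeq were aligned with Biopython 1.88.

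The genes and lists were chosen with earlier results of these data known. Named were the 9 genes, called members of the lists, Smo, the 3 genes most alike to Aldh1a1 and Aldh1a7 in profile with gene models passed over, and neighbours by position. List members that were not called and markers were named after their values were seen. The alternatives were no filter, a stricter filter, a filter on the higher group mean, probe set means, at least 5 probe sets, no variance trend, quantile normalization, a replicate block and leaving out each array. With an array left out, gene values were made again from the remaining arrays. List members with fewer than 3 kept probe sets were not analysed here.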

Additional observations from a re-analysis of the deposited data

How the results depend on the processing

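Over 14 alternatives for genes, 4 of the 9 genes were always called lower and 2 to 3 higher, the one that came and went being Aldh1a3. The number of genes called over all genes was 6537 and lay between 4817 and 6939, and between 4817 and 5543 without 1 array. Over 8 alternatives for probe sets, 61 to 68 of the 169 were called lower and 20 to 23 higher, against 67 and 22 in the main analysis. Without 1 array these were 64 to 67 and 20 to 23. Over all probe sets with 1 symbol, 9.3% were called lower and 12.9% higher in the main analysis. Differences ran from -2.65 to -1.38 for Aldh1a1, from -3.01 to -2.44 for Aldh1a7, from -2.59 to -2.02 for Adh1, from -1.96 to -1.63 for Dhrs3, from 0.60 to 0.84 for Rdh10 and from 1.02 to 1.10 for Rdh11, all called. No called difference among the 9 genes reversed.

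Replicate numbers are shared by the groups, but deviations of same-numbered arrays correlated at 0.08, 0.10 and 0.39 across genes, so the numbers were not taken as pairs. With the replicate block 6939 genes were called, 68 probe sets of the 9 genes were lower and 22 higher, and 4 of the 9 genes were lower and 3 higher. Among the other lists, the calls of Rdh14, Tgm2, Aldh7a1, Aldh3a2, Fabp5 and Rarg were each lost in at least 1 alternative. No detection calls were at hand, so signal over background could not be assessed for the dim probe sets.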
